A study of Mus musculus with 4 samples.

Results

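The respiratory chain of the mouse mediobasal hypothalamus was described here across cell types, neuron populations and insulin treatment. Its members were every gene of the deposited count table whose symbol starts with mt-, with Nduf, Uqcr, Cox followed by 4 to 8, or Atp5, together with Sdha, Sdhb, Sdhc, Sdhd and Cyc1, pseudogenes left out. This gave 107 of 31053 genes. Of these, 94 are encoded in the nucleus and 13 by the mitochondrial genome. This rule uses symbols and no measured value, though the set was proposed with earlier results of these data known.

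The respiratory chain passes electrons from NADH and succinate to oxygen through complexes I to IV of the inner mitochondrial membrane, and complex V, the ATP synthase, makes ATP from the proton gradient this builds. Each of these complexes except complex II is assembled from subunits of both genomes, the nuclear ones being made in the cytoplasm and imported. Transcripts of the mitochondrial genome are made and kept inside mitochondria, so in a preparation of nuclei they are read as a sign of cytoplasm left on or beside the nuclei. Neurons and glia both use the chain, and neurons are known for a high demand for ATP at synapses and for ion pumping.

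Nuclei were isolated from the dissected hypothalamus of wild-type mice that had ad libitum chow, were cleaned by flow sorting and were sequenced as 10x 3' gene expression libraries. The tested mice received Insulin and the control mice Saline, with 2 libraries each, 1 of each treatment in each of 2 runs, called A and B here. The annotation of the nuclei numbers these runs without saying what was run together. Dose, route, time, age, sex and the number of mice behind a library are not given in the labels, so p-values measure the spread between these 4 libraries only. A unique molecular identifier (UMI) marks 1 captured RNA molecule, and all values below are counts of UMIs summed over the nuclei of a library, or CPM, counts scaled to the same total of UMIs in every such sum.

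The libraries held 8352 and 9796 annotated nuclei for Insulin and 9473 and 8902 for Saline (run A, then run B in each case, an order kept throughout), with 63590421 to 71391593 UMIs per library. Xist, transcribed from the inactive X chromosome, was at 4.88 and 1713 CPM in the Insulin libraries and at 4.53 and 1614 CPM in the Saline libraries, and the Y-linked Uty at 175 and 1.02 CPM against 177 and 1.40 CPM, so run and the sex of the tissue cannot be told apart. Of the 16-base barcodes of annotated nuclei, 318 occurred in more than 1 library, in 636 nuclei, 179 of these barcodes being shared by the Insulin and Saline libraries of run A. Those nuclei had 12169 CPM of mitochondrially encoded and 4763 CPM of nuclear-encoded members, against 126 and 3223 CPM in the other nuclei. Without them the log2 ratio of the mean sums over all nuclei, Insulin over Saline, was 0.066 instead of 0.079 for the mitochondrially encoded and 0.087 instead of 0.086 for the nuclear-encoded members. Cell types are the authors' own, and the markers of 2 go against their names. Nuclei annotated Endothelial had Cldn5 and Pecam1, both endothelial, at 1.39 and 3.58 CPM, but the tanycyte genes Rax and Col23a1 at 86.2 and 2434 CPM. Nuclei annotated Mural Cell had the pericyte and smooth muscle genes Rgs5, Pdgfrb, Abcc9 and Myh11 at 590.5, 526, 340 and 127 CPM and also the endothelial genes Flt1, Cldn5 and Pecam1 at 1636, 557 and 196.5 CPM. Both groups are called below by the authors' labels, written Endothelial-annotated and Mural-annotated. Markers of neurons were also found in other types. They summed over libraries to 2314 to 8989 CPM in microglia, beside 1181 to 2859 CPM of microglial markers. In OPC (oligodendrocyte precursors) they summed to 1097 to 4689 CPM, beside 1803 to 2416 CPM of OPC markers. In astrocytes they were at 447 to 679 CPM and in oligodendrocytes at 530 to 818 CPM. Their part in the levels of the members was not tested.

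The members together were a small part of the nuclear RNA. The 94 nuclear-encoded genes had 877274 UMIs, or 0.324% of 271029088, and the 13 mitochondrially encoded genes 62958, or 0.0232%. By role, complex V had 250499 UMIs, the supernumerary subunits of complex I 200842, complex IV 149969, the assembly factors of complex I 79118, complex III 74274, the core subunits of complex I 73323 and complex II 49249. Counts per kilobase of gene length were taken for the members only, and genes of both genomes were among the densest of them. A UMI is counted once per molecule, so this scale favours short genes. mt-Co3, mt-Co2 and mt-Co1, the catalytic core of complex IV, had 15721, 14722 and 9706 UMIs per kilobase and mt-Atp6 of the ATP synthase 14498. Among the nuclear genes Cox7c, Cox8a and Cox6a1, small subunits of complex IV, had 12872, 10814 and 3254 UMIs per kilobase, and Uqcrq of complex III, Atp5g3 and Atp5a1 of complex V and Cyc1, the cytochrome c1 of complex III, had 3155, 3137, 3047 and 3036. The lowest within the mitochondrial genome were mt-Nd6 and mt-Nd5 of complex I, at 159.9 and 332.2 UMIs per kilobase. The nuclear members are short genes, with a median length of 7419 bases in 92 that were annotated, against 22670 bases over 19576 genes. Across 87 nuclear members of 1 gene set and 1 set of libraries, log10 UMIs and log10 gene length had a Pearson r of 0.47 and a Spearman rho of 0.48.

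Several members could not be followed. Cox4i1, the ubiquitous form of complex IV subunit 4, and Ndufa13 of complex I were listed at 0 in every nucleus. In the gene models of GENCODE vM21 each lies wholly inside a longer model on the same strand, Cox4i1 inside Gm20388 (4434882 bases, 376269 UMIs) and Ndufa13 inside Yjefn3 (14925 bases, 2682 UMIs). Their 0 counts are therefore no measure of the transcripts, and whether the overlap caused them was not tested. Cox8c and Cox8b had 3 and 6 UMIs in all, mt-Nd6 83, Cox7a1 87, mt-Atp8 137, Cox4i2 154, Cox6a2 228 and Ndufa4l2 253. Atp5o, the stalk subunit OSCP of the ATP synthase, is uncertain. The files hold 2 rows with this symbol, Atp5o with 72537 and Atp5o.1 with 2331 UMIs, and the annotation has 2 models so named on chromosome 16, of 242585 and 6474 bases. The longer one contains Cryzl1, which was listed at 0 UMIs, and overlaps Donson on the same strand, so reads of other genes may be counted in it.

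Promoter sequences were available from RefSeq (GRCm38.p6) for 74 of the 94 nuclear members, as 79 windows from 250 bases before to 50 bases after a start site. The 10-letter motif of NRF1, a regulator known for nuclear respiratory genes, GCGC and TGCGC with any 1 base between them, sought on both strands, was in 20 of the 79 windows (25.3%) and in 1512 of all 32851 windows of this length (4.60%). The YY1 motif AAGATGGCG was in 8 (10.1%) against 461 (1.40%), the ETS motif CCGGAAGT in 5 (6.33%) against 1277 (3.89%), and the ERR motif TCAAGGTCA in 2 (2.53%) against 139 (0.423%). None of these motifs contains another. Several windows held 2 or more matches, among them those of Ndufb4 with 3 NRF1 matches and Uqcrc1 with 2, which are not printed. Of such windows, those of 3 members are printed as examples. They are those of Cox6a1 (chr5:115348909-115349208, minus strand), Sdha, the flavoprotein of complex II (chr13:74350191-74350490, minus strand), and Atp5g3, which encodes subunit c of the ATP synthase ring (chr2:73911277-73911576, minus strand). Each is given 5′ to 3′ along its gene, with the NRF1 matches, and in Atp5g3 also the ERR match, in capitals.
Cox6a1: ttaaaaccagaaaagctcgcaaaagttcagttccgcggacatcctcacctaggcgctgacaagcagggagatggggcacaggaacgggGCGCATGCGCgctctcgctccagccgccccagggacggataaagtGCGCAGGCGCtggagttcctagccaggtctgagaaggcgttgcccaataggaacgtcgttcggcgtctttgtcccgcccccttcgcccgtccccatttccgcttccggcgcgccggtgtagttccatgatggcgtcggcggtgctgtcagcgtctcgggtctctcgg
Sdha: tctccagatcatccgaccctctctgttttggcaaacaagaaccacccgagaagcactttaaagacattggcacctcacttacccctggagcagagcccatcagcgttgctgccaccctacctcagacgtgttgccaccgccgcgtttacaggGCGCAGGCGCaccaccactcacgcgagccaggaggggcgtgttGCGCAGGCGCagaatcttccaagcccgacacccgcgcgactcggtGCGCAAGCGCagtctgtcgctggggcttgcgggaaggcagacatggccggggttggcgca
Atp5g3: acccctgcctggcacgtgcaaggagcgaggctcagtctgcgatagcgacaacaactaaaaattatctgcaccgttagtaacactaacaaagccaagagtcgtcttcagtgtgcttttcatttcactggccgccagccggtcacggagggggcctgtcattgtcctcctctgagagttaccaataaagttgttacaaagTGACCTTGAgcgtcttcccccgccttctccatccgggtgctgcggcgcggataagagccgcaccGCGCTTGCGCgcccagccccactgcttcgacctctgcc
The window of Cox6a1 held 2 NRF1 matches, that of Sdha 3, and that of Atp5g3 1 NRF1 match and 1 ERR match, which reads TGACCTTGA on the printed strand. A match is a run of letters and not a measured binding site.

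The mitochondrially encoded UMIs were unevenly spread over nuclei. At least 1 was found in 35.3% of annotated nuclei, the 366 nuclei richest in them (the top 1%) held 51.0% of them, and the highest single nucleus had 418. The 1116 nuclei that the authors left Unassigned, 3.06% of all, held 55.7% of the mitochondrially encoded UMIs but 1.78% of the nuclear-encoded ones. No annotated cell type lacks mitochondria, so the level that free RNA adds to a nucleus could not be read from a type without them. Sums over all annotated nuclei are therefore led by few nuclei for the mitochondrial genes, and the cell types are given one by one.

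Mural-annotated nuclei had the highest summed level of the nuclear-encoded and of the mitochondrially encoded members, and neurons the lowest level of the mitochondrially encoded ones. Their nuclear-encoded members summed to 6970 and 6374 CPM in the Insulin libraries and 4330 and 7169 CPM in the Saline libraries, a mean of 6211 ± 1299 CPM (SD, n = 4 libraries). Astrocytes followed at 4532 ± 623 CPM, then oligodendrocytes at 3784 ± 968, Endothelial-annotated nuclei at 3660 ± 624, microglia at 3566 ± 780, ependymal cells at 3095 ± 379, neurons at 3062 ± 474 and oligodendrocyte precursors (OPC) at 2886 ± 542. From astrocytes downward each mean differed from the next by less than the larger SD of the pair. These SDs include differences between libraries that the types share, so they do not measure the spread of a difference within a library. Read within a library, Mural-annotated nuclei had 1.78 to 2.35 times and astrocytes 1.43 to 1.54 times the neuronal level in CPM, so both stood above neurons in 4 of 4 libraries, while ependymal cells were at 0.960 to 1.06 times that level. Per nucleus rather than per UMI the order of the first pair turns, a Mural-annotated nucleus having 0.416 to 0.604 times the nuclear-encoded UMIs of a neuron, since the median nucleus had 1920 UMIs there and 8445 UMIs in neurons.

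The mitochondrially encoded members summed to 5453 and 2329 CPM in Mural-annotated nuclei of the Insulin libraries and to 2056 and 3352 CPM in those of the Saline libraries, and ependymal cells had 2199 and 1175 CPM against 570 and 1064 CPM. Neurons were lowest, with 67.1 and 78.9 CPM in the Insulin libraries and 46.2 and 59.0 CPM in the Saline libraries. The other means were 342 ± 54.2 CPM in Endothelial-annotated nuclei, 286 ± 89.0 in astrocytes, 170 ± 43.3 in microglia, 148 ± 15.1 in oligodendrocytes and 112 ± 33.7 in OPC (SD, n = 4 libraries). The level in Mural-annotated nuclei was 29.5 to 81.3 times that of neurons in the same library, in ependymal cells 12.3 to 32.8 times and in astrocytes 3.52 to 5.85 times. The ranges of neurons and of Mural-annotated and ependymal nuclei did not overlap. Per nucleus, too, Mural-annotated nuclei had on average 9.14 to 19.8 times the mitochondrially encoded UMIs of neurons. Few nuclei weigh heavily in these averages. Of the 2968 such UMIs in Mural-annotated nuclei, 1 nucleus held 398, and the top 1%, 4 nuclei, held 28.3%. In neurons the top 1% held 22.9%. The median nucleus had 1 such UMI in Mural-annotated nuclei and 0 in neurons, and 52.5% and 33.8% of nuclei had any. The ependymal values rest on 16 and 155 nuclei in the Insulin libraries and 54 and 49 in the Saline libraries, and the Mural-annotated ones on 64 and 115 against 85 and 98.

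**Figure D1:**
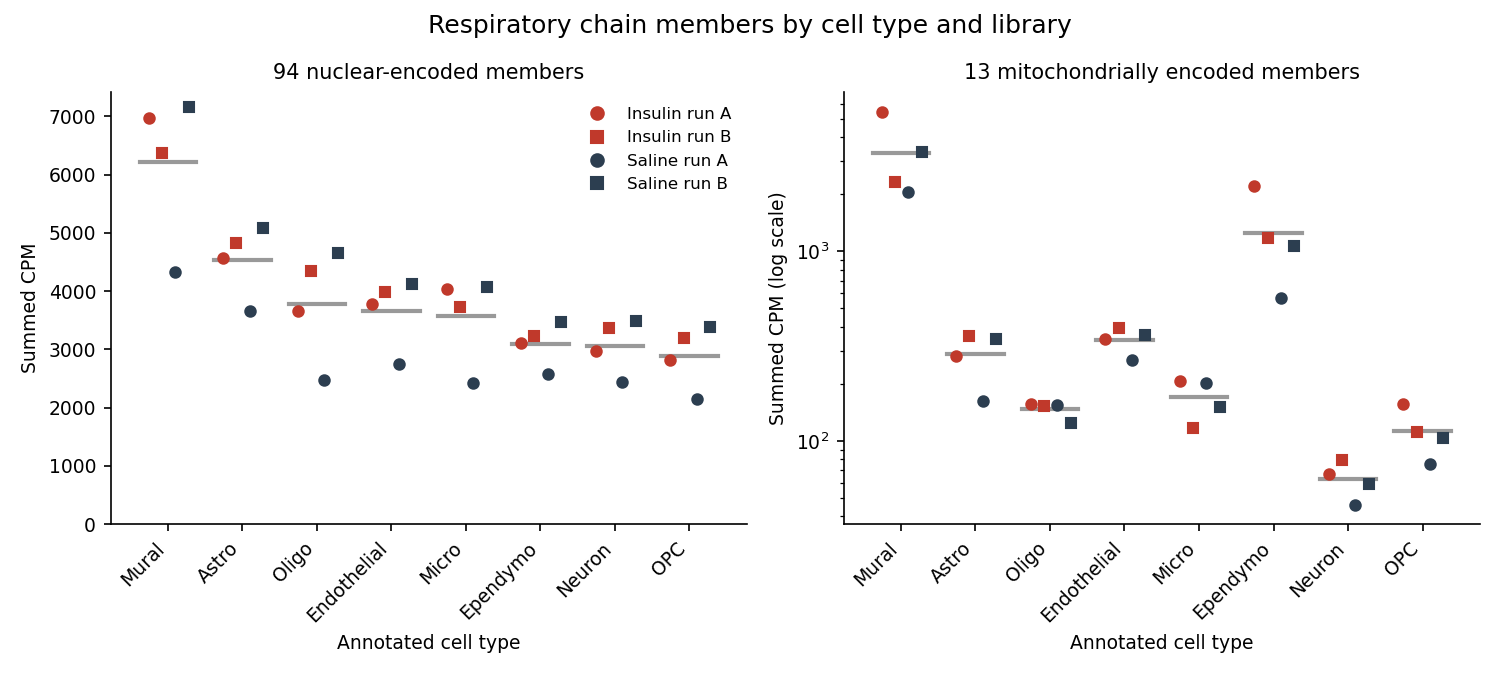
Summed level of the nuclear-encoded members (left, CPM, linear axis) and of the 13 mitochondrially encoded members (right, CPM, log axis) by cell type; each point is 1 library, Insulin left of Saline, and grey bars are means of 4 libraries. Mural-annotated nuclei lie highest on both panels, at means of 6211 and 3297 CPM, and neurons lowest on the right, at 62.8 CPM.

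Each type was then set against the mean of the log2 levels of the other 7 types, gene by gene, with edgeR's quasi-likelihood test on summed counts and Benjamini-Hochberg adjustment over 14597 genes. Of the members, 87 nuclear and 12 mitochondrial ones passed the filter on low counts. Cox4i1, Ndufa13, Cox6a2, Cox7a1, Cox7b2, Cox8b, Cox8c and mt-Nd6 did not. A call is an adjusted p under 0.05, and "higher" and "lower" below are calls.

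Neurons were lower in 54 and higher in 10 of the 87 nuclear members, against 32.7% of all genes called lower and 36.7% higher, with a median log2 difference of -0.47 over the members and 0.016 over all genes. All 12 mitochondrial members were lower, with a median of -2.59. The decrease took in complex IV (9 of 14 lower, none higher), complex III (7 of 9 lower, 1 higher) and the supernumerary subunits of complex I (22 of 28 lower, 2 higher). The assembly factors of complex I, which build the complex and are not part of it, were divided, with 3 of 8 higher and 3 lower. Ndufaf6, one of them, had 36.8 and 36.2 CPM in neurons of the Insulin libraries and 36.9 and 42.9 CPM in those of the Saline libraries, a mean of 38.2 CPM against 24.0 CPM over the other types (log2 0.94, SE 0.089, edgeR adjusted p 2.0e-11). Its 4 neuronal values lay close together. Ndufa10, a supernumerary subunit of complex I, was also higher (log2 0.66), as was Atp5o.1 (0.79). mt-Nd4l and mt-Atp6 had the largest decreases, at log2 -3.30 and -2.86, and mt-Atp6 was at 6.82 and 7.87 CPM in neurons of the Insulin libraries and 6.94 and 6.87 CPM in those of the Saline libraries. Genes under 10 kb moved the same way as a class, with a median log2 of -0.27 over all of them and -0.56 over the members of that length, and the part of gene length in the decrease was not tested.

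Astrocytes were higher in 65 of the 87 nuclear members and lower in 1, against 28.5% and 25.2% of all genes, with a median log2 of 0.35. The increase took in all 4 genes of complex II, 15 of 17 of complex V, 8 of 9 of complex III, 23 of 28 supernumerary subunits of complex I and 9 of 14 genes of complex IV. Atp5c1, the gamma subunit at the centre of the ATP synthase rotor, was at 74.8 and 73.7 CPM in astrocytes of the Insulin libraries and 64.0 and 82.2 CPM in those of the Saline libraries, with a mean of 73.7 CPM against 48.0 CPM over the other types (log2 0.75). Atp5o was at 653 and 488 CPM against 909 and 591 CPM (log2 2.30), with the uncertainty given above about what its row counts, and Atp5o.1 was higher too (0.90). The 1 lower member was the assembly factor Ndufaf2, at 50.8 and 51.0 CPM in the Insulin libraries and 49.5 and 48.8 CPM in the Saline libraries, against a mean of 76.8 CPM over the other types (log2 -0.43). With scaling by total UMIs alone, under which the median of all genes shifts to log2 -0.14 in astrocytes, 28 members were higher and the members' median was 0.20, or 0.34 above that of all genes. Without a term for library 23 of 87 were higher, where 23.5% of all genes were, so the count was then near the share of all genes.

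Oligodendrocytes were higher in 52 nuclear members and lower in 3, against 28.4% and 30.1% of all genes, with a median log2 of 0.38, and lower in 11 of 12 mitochondrial members. By role, 17 of 28 supernumerary and 5 of 7 core subunits of complex I, 7 of 9 genes of complex III, 8 of 14 of complex IV and 11 of 17 of complex V were higher. The largest fitted increase was that of Cox4i2, at 2.85 and 0.660 CPM in the Insulin libraries and 0.567 and 1.92 CPM in the Saline libraries (log2 2.06, edgeR adjusted p 0.040). Its mean of 1.50 CPM was below the 7.24 CPM over the other types, and the gene passed the filter on low counts through Mural-annotated nuclei. The call rests on 12 UMIs and on fitted values for types at 0 UMIs, so its size depends on the prior count. It is no sign of a high level, though it enters the counts of higher members above. Ndufa3 and Ndufs7, a supernumerary and a core subunit of complex I, had log2 differences of 0.77 and 0.75. Ndufs7 was at 29.5 and 42.9 CPM in oligodendrocytes of the Insulin libraries and 11.9 and 60.6 CPM in those of the Saline libraries, a spread between runs that was widest within Saline. mt-Nd5 had a log2 difference of -1.67, and mt-Atp8, with 2 UMIs in this type, of -2.16. By total UMIs alone 27 members were higher, with a median of 0.17 where that of all genes was -0.24, and without a library term 21 of 87 were, where 23.7% of all genes were, again near the share of all genes. With Mural-annotated nuclei left out of the types compared, 3 mitochondrial members were lower instead of 11.

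OPC, the proliferating precursors of oligodendrocytes, were lower in 27 nuclear members and higher in 1, Atp5s (log2 0.35, edgeR adjusted p 0.043), against 15.6% and 24.2% of all genes, and lower in 10 mitochondrial members, among them mt-Nd2 (-1.94) and mt-Nd3 (-1.88). That count depends on the scaling, being 54 by total UMIs alone (all-gene median -0.12, members -0.44) and 6 without a library term. In microglia 7 nuclear members were lower and 1 higher, the assembly factor Ndufaf5 (log2 0.54, adjusted p 0.045), against 11.7% and 23.1%, and 8 mitochondrial members were lower, led by mt-Cytb (-1.81) and mt-Nd4 (-1.47). In Endothelial-annotated nuclei 16 of 87 were lower and 4 higher, against 18.8% and 22%, the lower count being near the share of all genes, and 0 mitochondrial members passed. The mitochondrial counts depend on the types compared. With Mural-annotated nuclei left out, 9 of 11 were higher in Endothelial-annotated nuclei (23.9% of all genes) and 10 of 11 in astrocytes (30.8%). In microglia 2 were then lower (15.5%), and in OPC 9 (18.5%). Leaving out 1 library at a time gave 4 lower nuclear members in Endothelial-annotated nuclei without Saline of run B and 9 without any of the other 3. Sdhb, the iron-sulphur subunit of complex II, and Ndufa10 had log2 differences of -0.52 and -0.50, and Ndufaf6 and Ndufc2 were higher (0.45 and 0.43). Cox6b2, best known as the testis form of complex IV subunit 6B, was at 21.4 and 16.2 CPM in Endothelial-annotated nuclei of the Insulin libraries and 9.81 and 17.8 CPM in those of the Saline libraries, with a mean of 16.3 CPM against 5.51 CPM over the other types (log2 1.72, edgeR adjusted p 1.9e-06, from 79 UMIs).

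Mural-annotated nuclei were higher in 52 of the 87 nuclear members and in all 12 mitochondrial ones, and lower in 4, against 17.9% and 15.6% of all genes. With these nuclei left out of the types compared, 11 mitochondrial members passed the filter on low counts. At least 1 of the 12 was thus tested only through the nuclei in which it was called higher. The median log2 was 0.67 over the nuclear members, 3.62 over the mitochondrial ones and -0.13 over all genes. Of complex IV 13 of 14 genes were higher, 2 of them, Ndufa4l2 and Cox4i2, having passed the filter on low counts through these nuclei. Of complex III 7 of 9 were higher (median 0.95), and of the assembly factors of complex I 1 of 8 was higher and 2 were lower (-0.28). Cox7a2l, which joins complexes III and IV into supercomplexes, was at 118 and 106 CPM in the Insulin libraries and 95.6 and 161 CPM in the Saline libraries (log2 1.47, SE 0.15, edgeR adjusted p 4.2e-10), and Cox8a at 373 and 284 against 228 and 311 CPM (1.05). mt-Cytb, the cytochrome b of complex III, was at 466 and 205 CPM against 181 and 347 CPM (4.03). In each of these the ranges of the treatments overlapped. In nuclei with 0 mitochondrially encoded UMIs only 6 nuclear members were higher in this type and the median was 0.29, where 9.54% of all genes were called higher, and without Saline of run B the count was 34. The summed markers of this type ranged over libraries from 1340 to 1722 CPM, those of endothelial cells from 2089 to 2571 CPM and those of neurons from 1455 to 3115 CPM, and their part in these differences was not tested.

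The sharpest differences in these nuclei were of isoforms. Ndufa4l2, a paralogue of the complex IV subunit Ndufa4 that is induced by low oxygen and known from pericytes and smooth muscle, was at 218 and 109 CPM in Mural-annotated nuclei of the Insulin libraries and 101 and 115 CPM in those of the Saline libraries. The mean of 135.7 CPM stood against 0.531 CPM over the other types, none above 1.20 CPM and microglia at 0. Cox4i2, the alternative form of complex IV subunit 4 that is known for oxygen sensing in lung and pulmonary vessels, was at 80.8 and 37.6 CPM against 42.5 and 29.5 CPM. Its mean of 47.6 CPM stood against 0.650 CPM over the other types, with 0 UMIs in OPC and microglia. Both passed the filter on low counts through these nuclei, and their 121 and 41 UMIs there leave the levels imprecise, but the lowest of the 4 libraries, at 101 and 29.5 CPM, stood above the highest single library of any other type, at 2.82 CPM for Ndufa4l2 and 2.85 CPM for Cox4i2. The common forms were higher as well, Ndufa4 at 165.8 CPM (log2 1.05), Cox6a1 at 125 CPM (1.24), Cox6b1 at 95.2 CPM (1.07) and Cox7a2 at 97.7 CPM (0.88). Ndufaf6 fell by 0.98 on the log2 scale, from 14 UMIs, and Atp5o by 0.67.

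Ependymal cells, which line the ventricle with motile cilia, had all 12 mitochondrial members higher, with a median log2 of 2.17. Of the 87 nuclear members 20 were lower and 2 higher, against 20.3% and 20.5% of all genes. The lower count was thus near the share of all genes. The median log2 of the nuclear members was -0.35, where that of all genes was -0.19. mt-Nd5 was at 57.9 and 38.6 CPM in the Insulin libraries and 19.5 and 31.0 CPM in the Saline libraries (log2 3.38), and mt-Nd4l and mt-Atp8 had log2 differences of 2.77 and 2.75, the last from 9 UMIs. Of complex V 7 of 17 genes were lower and none higher. The lower count was 12 by RLE size factors, 11 by DESeq2, 9 without Insulin of run B and 6 without Saline of run B. Sdhd, a membrane anchor of complex II, was called lower (log2 -1.11, edgeR adjusted p 0.032) from 12 UMIs, and its difference was 0.084 in nuclei without mitochondrially encoded UMIs. Ndufaf4, an assembly factor of complex I, was lower as well (-0.94).

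**Figure D2:**
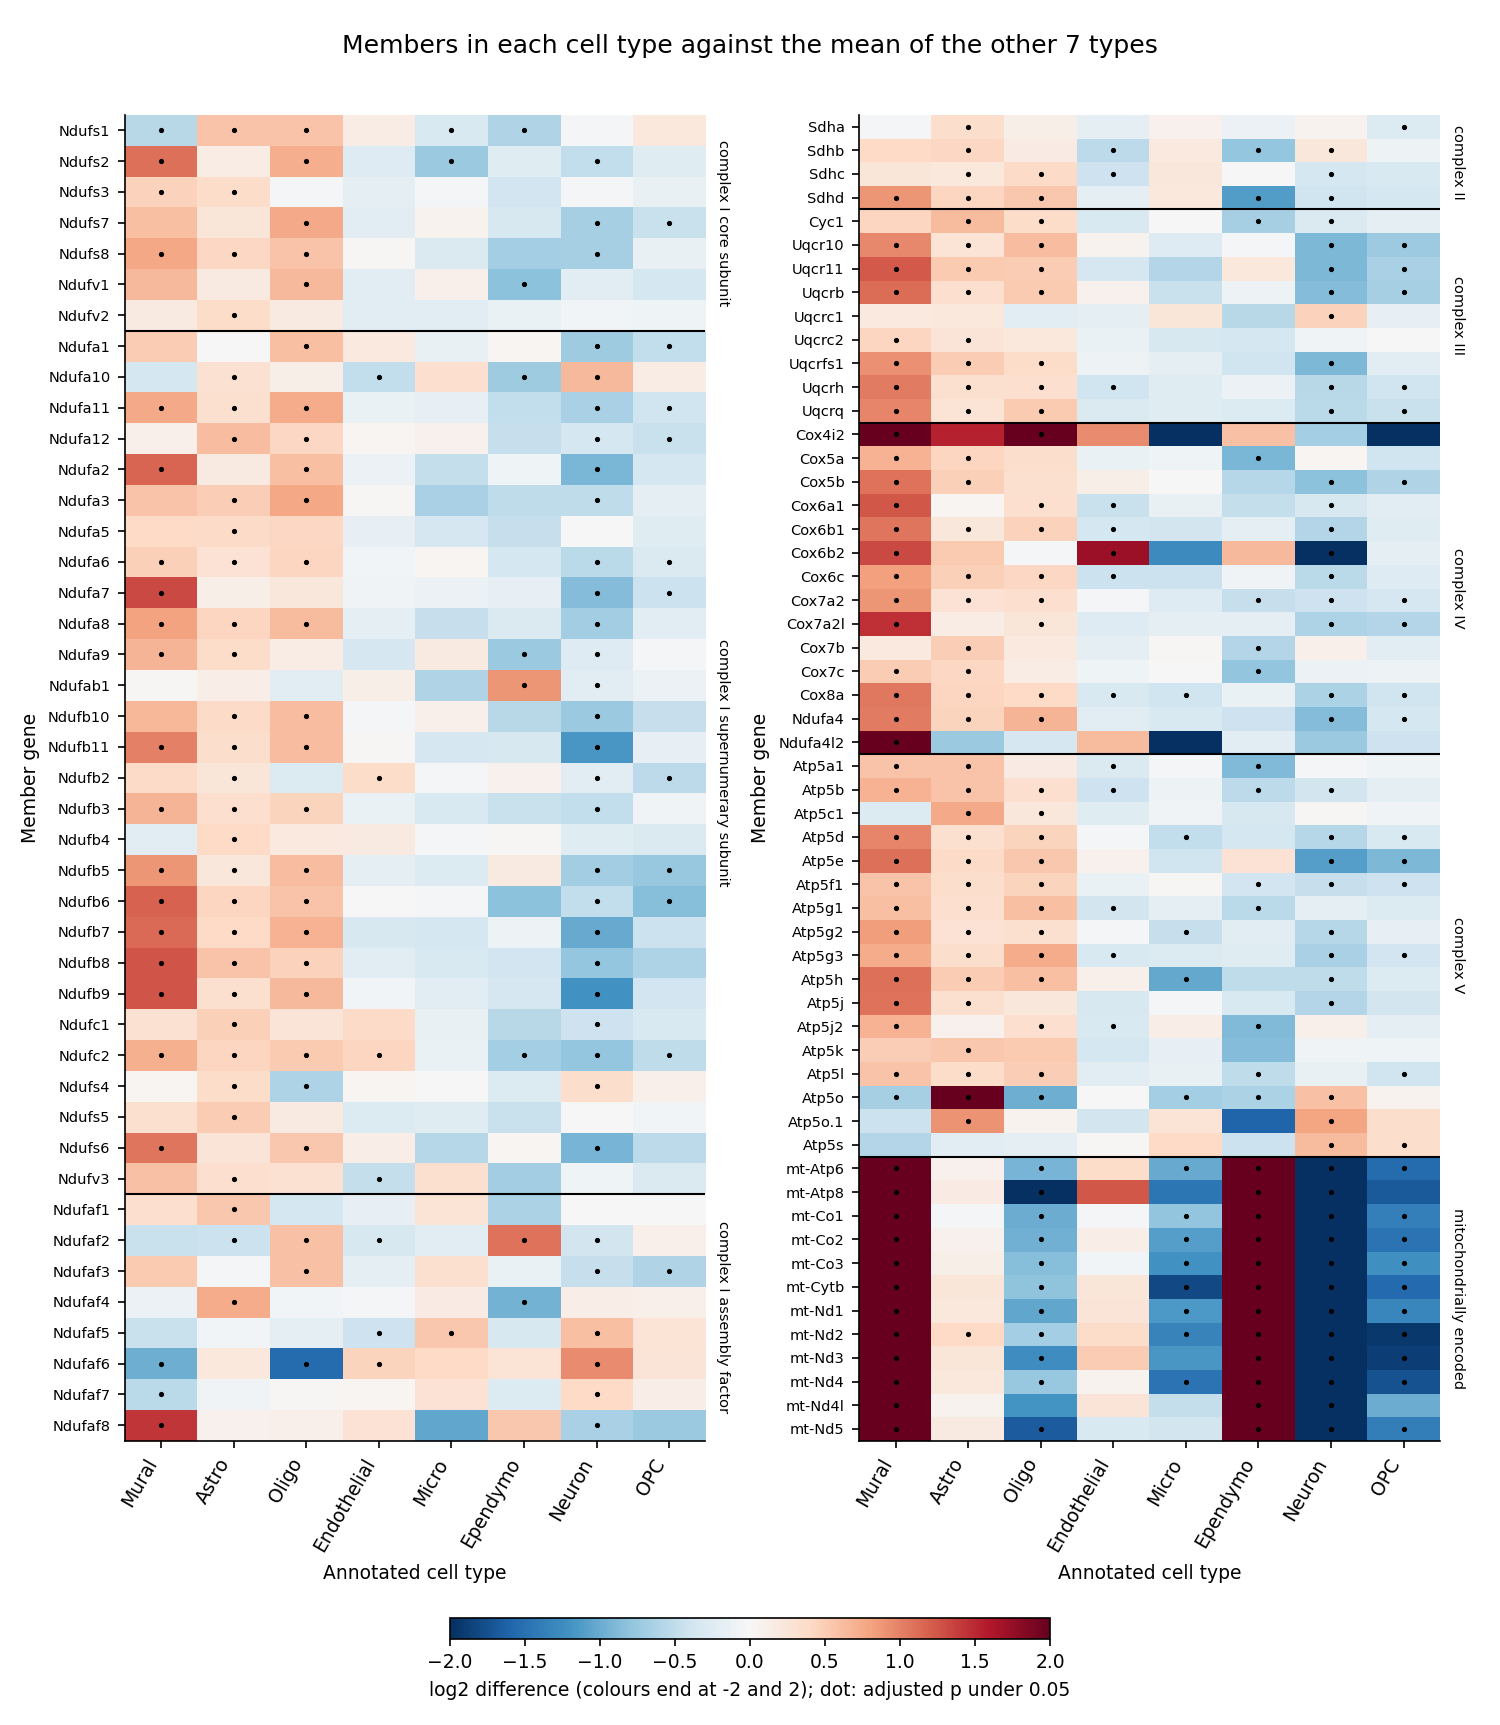
Log2 difference of the 99 members tested (rows, complex I on the left, complexes II to V and the mitochondrial genome on the right) in each of 8 cell types (columns) from the mean of the other types; the colours stop at -2 and 2 and dots mark adjusted p under 0.05. Astrocytes and Mural-annotated nuclei are mostly red, neurons mostly blue, and the mitochondrial rows are red in Mural-annotated and ependymal nuclei.

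Of the more abundant forms in the isoform families of complex IV, neurons were lower in 5, with Cox6a1 at 38.1 CPM (log2 -0.32), Cox6b1 at 28.6 (-0.59), Cox7a2 at 36.2 (-0.42), Cox7a2l at 27.9 (-0.61) and Cox8a at 87.0 CPM (-0.64). Cox6b2 was at 0.951 CPM in neurons (-2.70) and at 13.5 CPM in Mural-annotated nuclei (1.31, edgeR adjusted p 0.043). Cox6a2, the form of heart and skeletal muscle, was at 0 in ependymal cells and between 0.650 and 3.26 CPM in the other types and was not tested, and 152 of its 228 UMIs were in neurons. Cox7b was at 66.7 CPM in neurons, where its log2 difference of 0.10 did not pass, at 80.0 CPM in astrocytes (0.49) and at 43.6 CPM in ependymal cells (-0.59), and its paralogue Cox7b2, not tested, at 7.22 CPM in astrocytes and 4.08 CPM in neurons. Atp5g1, Atp5g2 and Atp5g3 encode the same mature subunit c. They were higher together in Mural-annotated nuclei (0.60, 0.84 and 0.74) and in oligodendrocytes (0.59, 0.32 and 0.75). In neurons Atp5g2 and Atp5g3 were lower (-0.56 and -0.65), and Atp5g1 had a difference of -0.17 that did not pass (adjusted p 0.065, edgeR).

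Of 46 further genes of the pathway, listed by role, 44 passed the filter. The shares of all genes called in each type are those given above for the members. In astrocytes 27 of 44 were higher and 3 lower, against 28.5% and 25.2% of all genes, among them 8 of 10 of the citrate cycle and all 6 of the nucleotide and phosphate carriers and the outer membrane pore, none of either group being lower. In oligodendrocytes 16 were higher and 7 lower, against 28.4% and 30.1%, with 6 of 6 carriers and pore genes higher and 4 of 7 regulators lower. In neurons 11 were higher and 17 lower, against 36.7% and 32.7%, with 4 of the 7 regulators higher and 4 of 6 carriers and pore genes lower. Mural-annotated nuclei had 10 higher and 3 lower, ependymal cells 6 and 8, OPC 3 and 7, microglia 6 and 4, and Endothelial-annotated nuclei 3 and 9. Cycs, the cytochrome c that carries electrons to complex IV, had log2 differences of 1.24 in Mural-annotated nuclei, 0.75 in oligodendrocytes, 0.41 in astrocytes, -0.57 in neurons and -0.79 in OPC, and these 5 passed. Of the 7 regulators 5 were higher and 1 lower in astrocytes. Of these, chosen after their values were seen, Ppargc1a, the coactivator known as PGC-1alpha, was higher in astrocytes (2.55), ependymal cells (1.74), neurons (0.56) and OPC (0.46) and lower in oligodendrocytes (-3.33) and Mural-annotated nuclei (-1.77), and Esrrg, a nuclear receptor it works with, was higher in neurons (2.32), ependymal cells (2.39), OPC (0.92), astrocytes (0.83) and microglia (0.83) and lower in oligodendrocytes (-3.49), Endothelial-annotated (-2.78) and Mural-annotated nuclei (-1.02).

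Genes under 10 kb moved with the members in other types too. In Mural-annotated nuclei their median log2 was 0.21 over all genes of that length and 0.84 over the members, in oligodendrocytes 0.20 and 0.47, in astrocytes 0.13 and 0.38, in OPC -0.12 and -0.35 and in ependymal cells -0.32 and -0.41. The members lay beyond their length class in the same direction in each of these types, and the part of length was not tested.

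Whether the nuclear-encoded members move with the sign of cytoplasm was then measured within each type. Every nucleus was thinned to 500 UMIs, and nuclei with and without a mitochondrially encoded UMI were summed apart. A mitochondrially encoded UMI remained in 27.0% to 53.1% of Mural-annotated nuclei, 20.4% to 50% of ependymal ones, 7.26% to 13.8% of astrocytes and 2.59% to 3.89% of neurons over the 4 libraries. Unthinned, 35.3% of all annotated nuclei had one. In Mural-annotated nuclei with such a UMI the nuclear-encoded members were at 10235 and 8323 CPM in the Insulin libraries and 6696 and 8971 CPM in the Saline libraries, against 5267 and 6405 CPM and 3710 and 6381 CPM in those without. They were higher with the UMI in 4 of 4 libraries, by 1.30 to 1.94 times. In the same nuclei 6 long noncoding RNAs known to stay in the nucleus were at 0.490 to 0.631 times their level in nuclei without it. In neurons the nuclear-encoded members were 1.06 to 1.21 times as high with the UMI as without, again in 4 of 4 libraries, and the noncoding RNAs 0.941 to 0.994 times. Before thinning, neurons with the UMI were shallower, with a median of 7622 UMIs against 8550 (means over libraries). The part of depth in this was not tested. In astrocytes the ratio for the nuclear-encoded members was 0.917 to 1.13, in oligodendrocytes 0.882 to 1.32, in OPC 0.980 to 1.65, in Endothelial-annotated nuclei 0.900 to 1.04, in ependymal cells 0.889 to 1.25 and in microglia 0.618 to 1.22, the last from 4 to 12 nuclei with such a UMI in a library, and both directions were present in each.

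**Figure D3:**
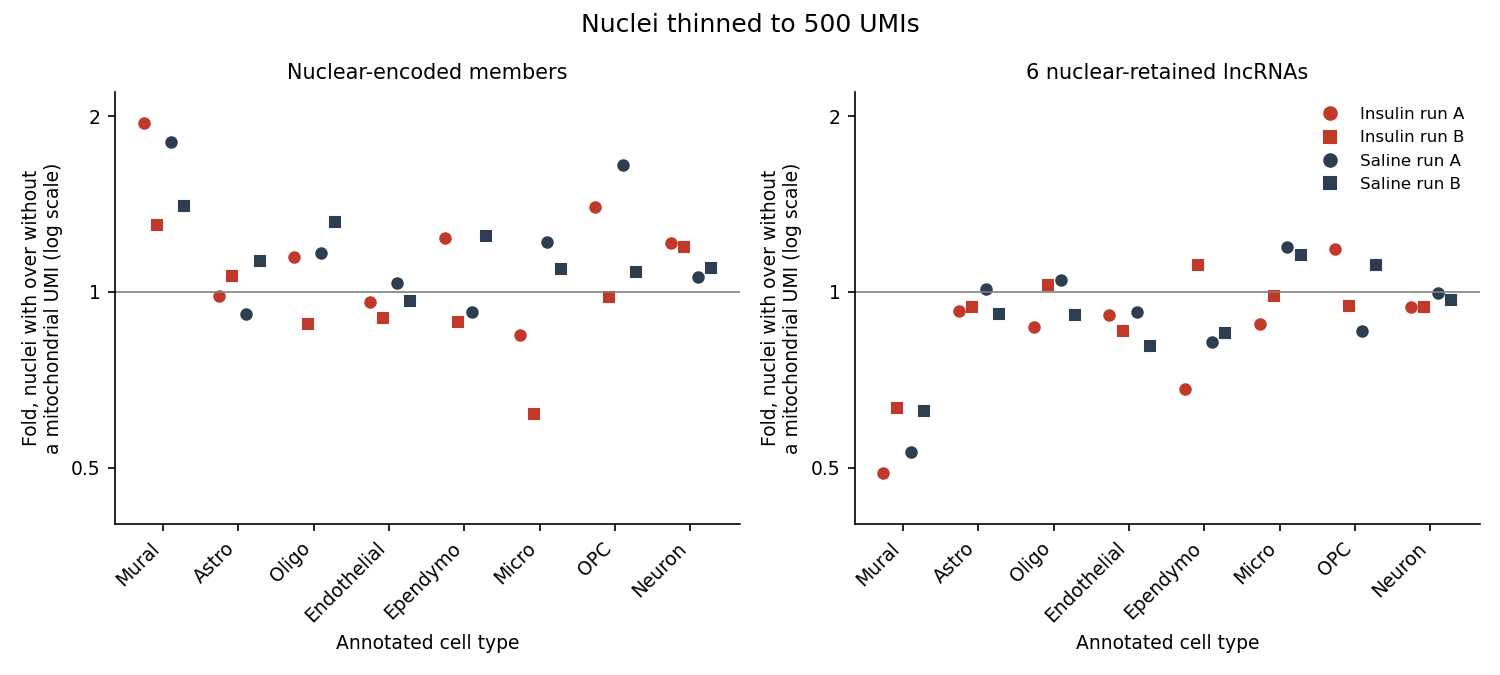
Ratio of summed CPM in nuclei with a mitochondrially encoded UMI over nuclei without one, by cell type and library, for the nuclear-encoded members and for 6 nuclear noncoding RNAs, after thinning to 500 UMIs. In Mural-annotated nuclei all 4 libraries lie at 1.30 to 1.94 for the members and at 0.490 to 0.631 for the noncoding RNAs.

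Depth moved with the level inside neurons, astrocytes and oligodendrocytes, the 3 types split by depth. Neurons were split into 3 equal groups by their UMIs. From the shallowest group to the deepest, the nuclear-encoded members were at 3650, 3205 and 2775 CPM and the mitochondrially encoded ones at 90.2, 66.3 and 51.3 CPM. In astrocytes, split likewise within their own type, the nuclear-encoded members were at 5441, 4698 and 4010 CPM, and in oligodendrocytes at 4893, 4010 and 3164 CPM. The groups were cut within each type, so depth was not matched between types. Median UMIs, as means over libraries, were 2241, 3153 and 4453 in the groups of astrocytes and 5498, 8517 and 13489 in those of neurons. By these medians every group of astrocytes was shallower than every group of neurons. The part of depth in the differences between types was not tested.

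Among neurons, the authors' 37 populations include 35 with at least 10 nuclei in every library. M2.Hdc, with a minimum of 2 nuclei, and M13.Irx5, with 9, were left out. The nuclear-encoded members were highest in M1.GABA, at 5719 and 7076 CPM in the Insulin libraries and 3418 and 7887 CPM in the Saline libraries (mean 6025 ± 1955, SD, n = 4 libraries), and M32.Pdyn/Grp was at 3416 ± 552 CPM. They were lowest in M3.Pmch, the neurons of melanin-concentrating hormone (2340 ± 411), in M8.Nr5a1, marked by the transcription factor SF-1 of the ventromedial nucleus (2665 ± 447), and in M5.Snypo2 (2699 ± 393). Over libraries, M32.Pdyn/Grp ranged from 2664 to 3914 CPM and M3.Pmch from 1773 to 2648 CPM, so these 2 did not overlap, while M8.Nr5a1 reached 3060 CPM. M1.GABA stands apart in other ways too. Its 168 nuclei had a median of 1336 UMIs and a mitochondrially encoded sum of 2042 and 1062 CPM in the Insulin libraries against 449 and 672 CPM in the Saline libraries, and 10.5% to 32.5% of them kept a mitochondrially encoded UMI after thinning. Its neuron markers summed to 10553 to 11356 CPM, and those of astrocytes, oligodendrocytes, microglia and mural cells to 104 to 285, 217 to 345, 63.1 to 276 and 0 to 10.5 CPM. Over all neurons these sums were 11991 to 13108, and 47.8 to 72.9, 83.2 to 105.6, 73.1 to 147 and 3.43 to 4.99 CPM. Markers of OPC, endothelial and ependymal cells were at 0 to 94.6, 0 to 34.5 and 10.5 to 21.7 CPM in M1.GABA. Over all neurons they were at 14.1 to 22.4, 5.53 to 7.87 and 35.3 to 48.1 CPM. The part of these markers in the level of M1.GABA was not tested.

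Across the 35 populations the summed nuclear-encoded level fell with the median UMIs per nucleus, with a Pearson r of -0.79 and a Spearman rho of -0.68, and r was -0.72 over the 34 without M1.GABA. M3.Pmch had the median of 13308 UMIs and the lowest level. The nuclear-encoded and mitochondrially encoded sums had an r of 0.90 over 35 populations, which rests on M1.GABA, since it was 0.15 over the other 34. These points share 4 libraries and are descriptions.

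**Figure D4:**
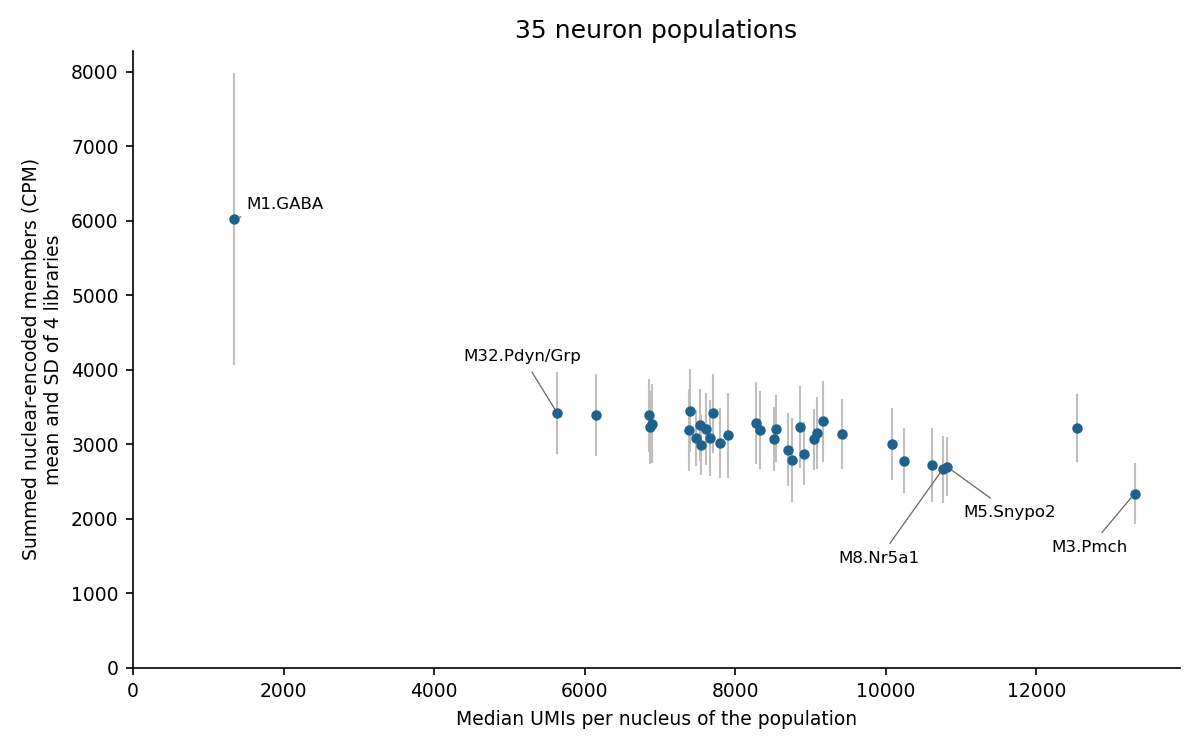
Summed nuclear-encoded level (CPM, mean of 4 libraries with SD) of 35 neuron populations against the median UMIs per nucleus. M1.GABA is at the upper left, at 6025 CPM and 1336 UMIs, and M3.Pmch at the lower right, at 2340 CPM and 13308 UMIs.

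Tested against the mean of the other populations, with edgeR as above, 165 of 2975 pairs of a nuclear member and a population were higher and 124 lower, against 13% and 8.16% of all pairs, so both shares of the members were below those of all pairs. Of 280 pairs with a mitochondrial member 10 were higher and 0 lower, and 8 of the 10 were in M1.GABA. M1.GABA had 29 nuclear members higher and 0 lower (3.46% of all genes higher). M8.Nr5a1 had 30 lower and 3 higher (18.1% and 26.8%), and M3.Pmch 11 lower and 0 higher (9.57% of all genes lower). In M1.GABA mt-Atp6 was at 345 and 200 CPM in the Insulin libraries and 34.5 and 86.7 CPM in the Saline libraries (log2 4.45), and all 4 values were above the neuronal level of 6.82 to 7.87 CPM.

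The named members of the populations at the ends of either order follow. Cox7b2, the rarer form of complex IV subunit 7B, was at 14.8 and 11.8 CPM in M5.Snypo2 of the Insulin libraries and 11.2 and 14.0 CPM in that of the Saline libraries, a mean of 12.9 CPM against 3.57 CPM over the other populations (log2 2.36). It was also higher in M8.Nr5a1, at 4.92 against 3.81 CPM (0.83). Ndufaf6 was higher in M8.Nr5a1, at 47.2 and 48.9 CPM in the Insulin libraries and 45.9 and 51.3 CPM in the Saline libraries (0.54), while Ndufa8 of complex I was lower there (-0.41). Cox7a2 was at 13.9 and 21.6 CPM against 14.2 and 11.02 CPM in M3.Pmch, a mean of 15.2 CPM against 37.6 CPM over the other populations (-1.09), and Ndufb5 and Atp5f1 were lower there too (-0.88 and -0.85). M5.Snypo2 had Uqcrfs1, the Rieske protein of complex III, lower (-0.62) and the acyl carrier protein Ndufab1 higher (0.52), and M32.Pdyn/Grp had Ndufc2 and Ndufv3 higher (0.44 and 0.37) and Cox5a lower (-0.43). Of the populations lowest in mitochondrially encoded UMIs, M35.Pomc, the neurons of the melanocortin precursor, had Atp5b, the catalytic beta subunit of the ATP synthase, at 51.3 and 63.0 CPM against 46.1 and 66.2 CPM, a mean of 56.7 CPM against 73.4 CPM over the other populations (-0.43). Ndufb5 and Atp5d were lower there too (-0.49 and -0.46). M25.Ghrh had Uqcrq, Ndufaf2 and Ndufaf4 lower (-0.52, -0.45 and -0.43), and M10.Sim1|Trh had Ndufs6 lower (-0.77) and Cox5a and Ndufab1 higher (0.64 and 0.54). Of those highest, M37.Tbx19 had Ndufb11 higher (0.55) and Cox7b lower (-0.37), M30.Gal had Atp5s higher (0.56), and M1.GABA had mt-Nd2 and mt-Nd4 higher (both 4.23). The member called in most populations was the assembly factor Ndufaf2, higher in 7 and lower in 2, followed by Atp5o, higher in 5 and lower in 6, and Ndufaf4, higher in 6 and lower in 4.

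The Insulin libraries were compared with the Saline libraries over all annotated nuclei and within each type. In the fits by treatment alone no member was called. Over all nuclei edgeR's quasi-likelihood test called 0 of 90 nuclear and 0 of 13 mitochondrial members (0% of 21190 genes), with 0 members among the 88 genes whose unadjusted p was below the threshold. In neurons it called 0 members (0% of 20275 genes) with 103 genes and 1 member, mt-Co2, below the threshold unadjusted, and in the other 7 types 0 members and 0% of genes, with 11 pairs of a member and a type below it unadjusted. DESeq2 called 0 members in all nuclei and in each type. Terms for a difference of the Insulin effect between types gave 0 calls in 99 members and 0 in 14597 genes, with 416 genes and 0 members below the threshold unadjusted. A fit with 2 libraries a side has 2 residual degrees of freedom, and an exact permutation test of a single sum cannot go below p = 0.333 here.

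The nuclear-encoded members summed to 3134 and 3538 CPM over all nuclei of the Insulin libraries and 2537 and 3750 CPM in the Saline libraries, so the Saline values enclosed the Insulin ones. The same held for every role except complex II, which was at 178 and 198 CPM against 159 and 193 CPM. Complex IV was at 519 and 647 CPM against 360 and 691 CPM, complex III at 263 and 316 against 190 and 329, the supernumerary subunits of complex I at 707 and 839 against 528 and 894, and complex V at 909 and 946 against 823 and 1018 CPM. The log2 estimate was above 0 in 78 of 90 nuclear members over all nuclei, with a median of 0.16, in 76 in neurons (0.19) and in 65 of 86 in astrocytes (0.17), while in ependymal cells it was above 0 in 19 of 39 (-0.034). Of the 45 further pathway genes 36 were above 0 (median 0.081), and none was called.

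Within the runs this estimate splits. In run A, 85 of 89 nuclear members were higher in Insulin than in Saline (95.5%, median log2 0.53), against 52.7% of all genes. In run B, 21 of 89 were (23.6%, median -0.069), against 49.0%. The 2 runs thus moved in opposite directions for most members. Set within a treatment, run B was above run A in 78 of 89 nuclear members for Insulin (median 0.23) and in 86 of 89 for Saline (0.91), where all genes had medians of 0.049 and 0.071, so the Saline library of run A was the one that stood apart. Gene length moved with this. Among genes under 10 kb the Insulin over Saline median in run A was 0.24 over all genes and 0.70 over the members (56 of 56 above 0), and between 10 and 50 kb 0.040 and 0.24 (26 of 28). In run B the shortest genes had -0.0071 and the members among them -0.085 (14 of 56 above 0).

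**Figure D5:**
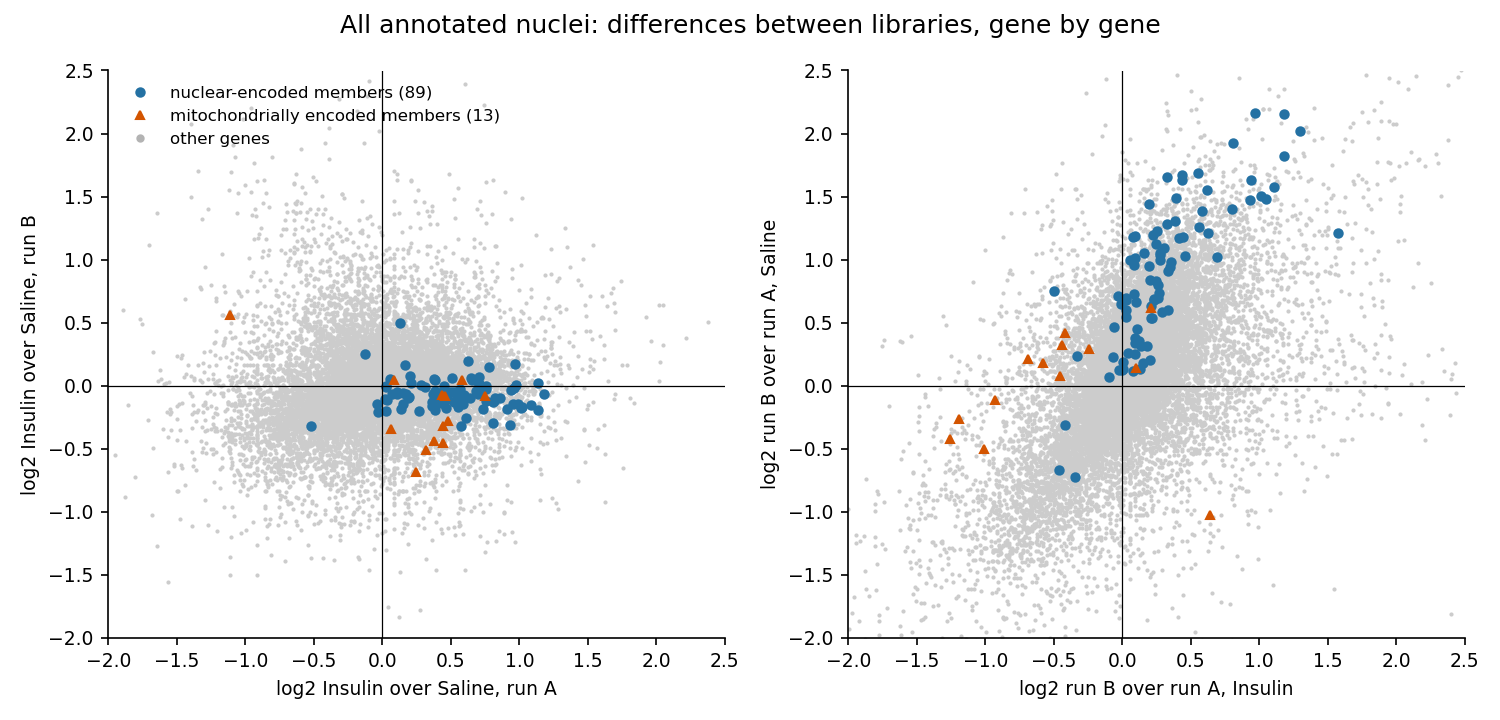
Left, log2 of Insulin over Saline CPM in run A (x axis) and in run B (y axis) for 89 nuclear-encoded members (blue), 13 mitochondrially encoded members (orange) and other genes (grey). Right, log2 of run B over run A in Insulin (x axis) and in Saline (y axis); genes beyond the axes are not drawn. Of the blue points, 85 of 89 lie right of 0 on the left panel, at a median of 0.53, and 86 of 89 above 0 on the right panel, at a median of 0.91.

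Of the nuclear members with the smallest unadjusted p in each direction over all nuclei, Ndufb2, Ndufs1 and Cox7a1 changed direction between the runs. The others named here kept the same direction in both runs. Atp5s, a coupling factor of the ATP synthase, was at 36.8 and 44.2 CPM in Insulin and 23.8 and 38.6 CPM in Saline (log2 0.38, SE 0.24, unadjusted p 0.187 in edgeR), and Atp5d, its delta subunit, at 34.4 and 39.5 against 21.1 and 37.7 CPM (0.33). Atp5g2 was at 41.5 and 49.1 against 26.6 and 47.2 CPM (0.30), and Atp5a1, the alpha subunit, at 103 and 121 against 72.5 and 116 CPM (0.25). In these 4 the Insulin value was higher in both runs but the groups overlapped. Sdhc, a membrane anchor of complex II, was at 30.8 and 30.9 CPM against 26.8 and 29.3 CPM (0.13), without overlap. It was the 1 nuclear member with both Insulin libraries above both Saline libraries, where 8.44% of all genes were. In the other direction Ndufaf6 was at 34.0 and 34.1 CPM against 34.8 and 39.5 CPM (-0.13), the 1 nuclear member with both Insulin libraries below, where 10.2% of all genes were. Atp5o was at 261.5 and 189.8 CPM against 376 and 237 CPM (-0.45, unadjusted p 0.196), lower in both runs, with Ndufb2 at log2 -0.10, Ndufs1 at -0.052 and Cox7a1, a low gene, at -0.31. The edgeR adjusted p of each was 0.9997.

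In neurons the 5 smallest p-values of increase belonged to Atp5s (log2 0.36), Cox6b2 (0.54), Atp5d (0.37), Ndufa8 (0.28) and Atp5a1 (0.27), and those of decrease to Atp5o (-0.44), Ndufaf6 (-0.13), Cox7a1 (-0.47), Ndufb2 (-0.10) and Ndufa9 (-0.087), none of which passed. Atp5o was at 247 and 175 CPM in neurons of the Insulin libraries and 354 and 215 CPM in those of the Saline libraries. With the run as a block its unadjusted p was 0.00099 and its edgeR adjusted p 0.343. Counts in glia differed without the Saline library of run B. That fit sets both Insulin libraries against 1 Saline library, the one of run A, and takes the spread from the Insulin pair alone, the lone Saline library being assumed to vary like it. It called 44 of 97 members in astrocytes (5.84% of all genes called), 43 of them higher, 18 in oligodendrocytes (2.83%), 5 in Endothelial-annotated nuclei (1.25%) and 2 in ependymal cells (0.453%), and 0 over all nuclei and in neurons.

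The mitochondrially encoded members summed over all nuclei to 312 and 164 CPM in Insulin and 241 and 210 CPM in Saline. Their 3 most counted genes were at 80.4 and 39.9 against 59.4 and 41.9 CPM for mt-Co1, at 60.4 and 31.7 against 46.5 and 43.0 CPM for mt-Co3 and at 52.6 and 22.02 against 42.1 and 31.4 CPM for mt-Co2. In all 3 the Insulin values enclosed the Saline ones. The log2 ratio of the mean sums was 0.079, and 0.43 without Unassigned nuclei and doublets, a choice made after seeing the data. In run A, 12 of the 13 were higher in Insulin (median log2 0.44), and in run B, 3 were (-0.28).

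In neurons both runs moved the same way. Their mitochondrially encoded sum was 67.1 and 78.9 CPM in the Insulin libraries and 46.2 and 59.0 CPM in the Saline libraries, log2 0.54 in run A and 0.42 in run B. mt-Co1 was at 17.4 and 22.2 CPM in Insulin and 9.38 and 15.5 CPM in Saline, a log2 difference of 0.67 (SE 0.27, edgeR unadjusted p 0.055). mt-Co3 was at 15.3 and 16.5 against 11.3 and 13.1 CPM (0.38), and mt-Co2 at 9.72 and 10.2 against 6.68 and 7.52 CPM (0.48, SE 0.17, unadjusted p 0.037), each adjusted to 0.9998. The groups did not overlap in 8 of the 13 mitochondrial members, all with Insulin above, where 8.74% of all genes did so. Within a run, 8 of the 10 with enough UMIs were higher in Insulin in run A and 10 of 10 in run B. In OPC and ependymal cells, too, both Insulin sums lay above both Saline sums, at 157 and 112 against 75.9 and 104 CPM and at the values given above.

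By population, the mitochondrially encoded sum was higher in Insulin in 29 of 35 in run A, in 24 in run B and in both runs in 21, and both Insulin libraries lay above both Saline libraries in 15 and below them in 1. The nuclear-encoded sum was higher in Insulin in 35 of 35 populations in run A and in 4 of 35 in run B. All populations come from the same 4 libraries, so these counts are not independent repeats of the treatment, and they were not tested. No member was called in any population by edgeR (0.000835% of all pairs). With the run as a block, which leaves 1 residual degree of freedom, 8 of 2622 pairs were called, against 0.13% of all pairs. They were mt-Co1 (log2 1.64, edgeR adjusted p 0.0098) and mt-Co3 (1.50) in M26.Agrp, the neurons of agouti-related peptide, mt-Co1 in M37.Tbx19 (2.34), mt-Co1 (0.99), mt-Co3 (0.88) and Atp5o (-0.43) in M8.Nr5a1, Atp5g1 in M30.Gal (1.81) and Atp5o in M34.Esr1/Npy1r (-0.72).

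The mitochondrial calls in M26.Agrp and M37.Tbx19 rest largely on single nuclei. In M26.Agrp the 13 genes summed to 164 and 66.4 CPM in the Insulin libraries and 43.5 and 44.7 CPM in the Saline libraries, without overlap, but 1 nucleus held 84 of the 218 UMIs behind the first value, where the highest nucleus of the other 3 libraries held 9, 4 and 3. In M37.Tbx19 the sums were 120.3 and 152 CPM against 34.7 and 56.3 CPM, and single nuclei held 56 of 103 and 62 of 143 UMIs in the Insulin libraries. In M8.Nr5a1, with 437 and 444 nuclei in the Insulin libraries and 454 and 619 in the Saline libraries, the sums were 62.0 and 82.6 CPM against 36.3 and 56.4 CPM, without overlap, and the highest nucleus held 18 of 339 and 57 of 358 UMIs against 5 of 196 and 27 of 426. M35.Pomc, whose neurons oppose those of Agrp in feeding, was at 52.6 and 39.7 CPM against 52.9 and 48.5 CPM, without a separation upward.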

How the data were processed

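The deposited files are 1 matrix of whole-number UMI counts per gene and barcode for all libraries, with tables of genes, barcodes and the authors' annotation of nuclei. Per the submitters' processing notes the authors used Cell Ranger with GRCm38; versions and gene models are not given in the sources used here. The deposited counts carry no normalization, and no barcode has under 500 UMIs. The annotation gives library, treatment, type and neuron population, and a further column of conserved clusters was not used. It lists 36534 nuclei, of which 36523 matched a barcode; the 4633 barcodes without annotation were kept apart. The 423 nuclei the authors marked as doublets entered the sums over all nuclei only, and no other doublet caller was run.

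Counts were summed per library within each type and population with at least 10 nuclei in every library. They were tested with edgeR 4.0.16 (quasi-likelihood, TMM scaling, filterByExpr with a minimum count of 10 and total of 15) in R 4.3.3. Fits between types and between populations had a library term. The p-values were adjusted by the Benjamini-Hochberg method over the genes tested, separately for each type or population. The scripts were tested on simulated data. Alternatives were DESeq2 1.42.0, RLE or total-count scaling, no filter, no library term, leaving out each library, the run as a block, and nuclei with 0 mitochondrially encoded UMIs. Those without shared barcodes, doublets and Unassigned nuclei, Mural-annotated nuclei, M1.GABA or Atp5o were chosen after seeing the data. Whether libraries of 1 run deviate together was checked over 19889 genes, with a correlation of 0.67 between the 2 libraries of run A. Within-run values need at least 10 UMIs in each library. A UMI is counted once per molecule, so spreads beyond counting error are between libraries; no intervals are given for single libraries.

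The members, gene lists and named genes were chosen with earlier results of these data known. Named were the 5 nuclear members of smallest unadjusted p in each direction for Insulin and the 3 mitochondrial ones of highest count; for each type the 3 largest increases and 2 largest decreases past the threshold; isoform families; and 3 members each in the populations highest and lowest in either sum. Others named, such as Cox7a2l, the pathway examples and Cox8a, were chosen after their values were seen. 1 population that this rule covers is not reported here.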

Additional observations from a re-analysis of the deposited data

Results flagged for a closer look

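In 9 of 9 groups of nuclei the summed nuclear-encoded level was higher in Insulin than in Saline in run A and lower in run B, which is why these values are listed. The log2 ratios of Insulin over Saline, run A first, were 0.30 and -0.084 over all annotated nuclei, 0.29 and -0.052 in neurons, 0.32 and -0.075 in astrocytes, 0.57 and -0.10 in oligodendrocytes, 0.38 and -0.087 in OPC, 0.74 and -0.12 in microglia, 0.46 and -0.047 in Endothelial-annotated nuclei, 0.69 and -0.17 in Mural-annotated nuclei and 0.28 and -0.10 in ependymal cells. With 1 library of each treatment in a run the difference between runs was not tested.

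The mitochondrially encoded sum also changed direction between the runs over all annotated nuclei (log2 0.38 and -0.36), in microglia (0.033 and -0.37) and in Mural-annotated nuclei (1.41 and -0.53), again without a test of the difference.

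In oligodendrocytes the Saline library of run B had a mitochondrially encoded sum of 125.1 CPM, far from the other 3, which lay between 152 and 157 CPM. Among groups of 4 about 1 in 20 is marked in this way by chance.

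Of the nuclei that enter no comparison between types, those left Unassigned had a mean mitochondrially encoded sum of 26617 CPM over the 4 libraries, and the 4633 barcodes without annotation had 434 CPM.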

How the results depend on the processing

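The replicate numbers of the sample titles could not be tied to single libraries, so the run of the annotation stood as the replicate block, which pairs 1 Insulin with 1 Saline library. With the block the members called for Insulin remained 0 over all nuclei and in each type and became 8 over the neuron populations.

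Leaving out 1 library at a time gave 0 to 44 members called for Insulin in astrocytes, 0 to 18 in oligodendrocytes, 0 to 5 in Endothelial-annotated nuclei and 0 to 2 in ependymal cells. The nuclear members lower in Endothelial-annotated nuclei were 4 to 9, those higher in Mural-annotated nuclei 34 to 47, those lower in ependymal cells 6 to 17 and those lower over the populations 70 to 99. The log2 ratio of summed levels, Insulin over Saline, ran from -0.17 to 0.40 for the nuclear-encoded and -0.46 to 0.47 for the mitochondrially encoded members over all nuclei, and in neurons from -0.14 to 0.38 and from 0.31 to 0.66.

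With scaling by total counts 28 nuclear members were higher in astrocytes and 27 in oligodendrocytes, 54 were lower in OPC, 2 in Endothelial-annotated nuclei and 220 over the populations, with 2 mitochondrial ones lower there. Without a library term the first 4 of these counts were 23, 21, 6 and 4, and 9 were lower in ependymal cells. Without a filter 6 were lower in Endothelial-annotated nuclei and 70 over the populations, with 16 mitochondrial members higher and 2 lower there. In nuclei with 0 mitochondrially encoded UMIs 6 were lower in OPC, 2 in Endothelial-annotated nuclei, 11 in ependymal cells and 55 over the populations, and 6 were higher in Mural-annotated nuclei. RLE size factors gave 12 and DESeq2 11 lower in ependymal cells. Without Mural-annotated nuclei 3 mitochondrial members were lower in oligodendrocytes and 2 in microglia, and 9 were higher in Endothelial-annotated nuclei and 10 in astrocytes. In the same fit 5 nuclear members were lower in Endothelial-annotated nuclei and 11 in ependymal cells. Without M1.GABA 6 mitochondrial members were higher over the populations, and without shared barcodes 1 was lower. The cause was not tested in any of these.

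Of named genes, Sdhd in ependymal cells turned to log2 0.084 in nuclei with 0 mitochondrially encoded UMIs. Leaving out 1 library turned 8 Insulin estimates that had not passed. Over all nuclei these ran from -0.00074 to 0.77 for Atp5d, -0.030 to 0.74 for Atp5g2, -0.026 to 0.59 for Atp5a1, -0.24 to 0.060 for Ndufb2 and -1.34 to 0.29 for Cox7a1. In neurons they ran from -0.78 to 0.012 for Atp5o, -1.43 to 0.11 for Cox7a1 and -0.22 to 0.046 for Ndufb2. The 4 libraries limit these comparisons, and for Cox7a1, with 87 UMIs in all, so does depth.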

Other observations

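The 4633 barcodes that carry no annotation had a median of 7270 UMIs and 3440 CPM of nuclear-encoded members, and 45.7% of them had a mitochondrially encoded UMI. The annotated nuclei had 35.3%.

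Unassigned nuclei had nuclear-encoded sums of 7952 and 11494 CPM in the Insulin libraries and 7230 and 18786 CPM in the Saline libraries. After thinning, 40.1% to 93.8% of them kept a mitochondrially encoded UMI, and the nuclear noncoding RNAs were at 0.372 to 0.643 times the level of those without one. Of the 614 annotated nuclei with 20 or more mitochondrially encoded UMIs, 486 were Unassigned.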
